A study of Mus musculus with 84 samples.

Results

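The glycolysis and lactate genes described here are 33 genes for the uptake of glucose, its breakdown to pyruvate, the exchange of pyruvate and lactate, the transport of lactate and the entry of pyruvate into mitochondria, with the hypoxia-inducible factor genes Hif1a and Epas1. They were taken by gene symbol, and all 33 were found among the 20308 genes of the table. Transcripts were measured in 84 single cells of the aorta-gonad-mesonephros (AGM) of E11.5 mouse embryos, the trunk region around the dorsal aorta, where E counts embryonic days. The cells had been sorted by flow cytometry for CD31 and CD144, surface proteins of endothelium, and against CD41 and CD45, surface proteins of blood cells, and then captured on a microfluidic chip. The labels give no strain, genotype or treatment. Embryos are not named, so all 84 cells were treated as 1 group and 1 sample, and the values below are descriptions of these cells without a test.

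Values are in TPM, a unit that corrects reads for transcript length and brings every cell to the same total, so the levels of different genes can be set side by side. Detection means a level of at least TPM 1. Read depths are unknown, and a transcript listed at 0 may have been absent or missed. Between 3334 and 10073 genes were detected per cell, with a median of 6978. The cells carried a median of 15 of 17 pan-endothelial markers at TPM 10 or more, and 4 cells carried under 3 of them.

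Glycolysis converts glucose to pyruvate in the cytosol and yields ATP without oxygen. Lactate dehydrogenase then reduces pyruvate to lactate and restores the NAD that glycolysis uses, while the pyruvate dehydrogenase complex feeds pyruvate to the citric acid cycle instead. Endothelial cells are known for drawing much of their ATP from glycolysis. Most steps can be carried by more than 1 isozyme, and isozymes of a step differ in tissue distribution and in kinetics. Lactate dehydrogenase is a tetramer of the subunits encoded by Ldha, which prevail in skeletal muscle, and Ldhb, which prevail in heart.

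Several results below turn on Ldha and Ldhb, which encode subunits of the same enzyme but differed in how many cells held them, so the 250 bases before their annotated starts are shown. Both come from RefSeq on GRCm38.p6, the assembly that mm10 names. They run 5′ to 3′ on the strand of the gene. Capitals mark each stretch covered by ACGTG or GCGTG, the core letters bound by hypoxia-inducible factors, or by their reverse complements CACGT and CACGC. The Ldha window is chr7:46845554-46845803 on the plus strand, before the first of 2 listed starts. The Ldhb window is chr6:142507958-142508207 on the minus strand, before its 1 listed start. Bases shortly after the start were found in an annotated transcript of the gene for Ldhb, but not for the Ldha start shown.
Ldha: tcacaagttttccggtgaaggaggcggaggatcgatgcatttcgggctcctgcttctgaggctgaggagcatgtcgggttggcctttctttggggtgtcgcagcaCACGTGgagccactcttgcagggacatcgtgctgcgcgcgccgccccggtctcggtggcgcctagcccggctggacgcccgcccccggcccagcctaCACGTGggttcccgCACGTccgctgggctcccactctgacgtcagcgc
Ldhb: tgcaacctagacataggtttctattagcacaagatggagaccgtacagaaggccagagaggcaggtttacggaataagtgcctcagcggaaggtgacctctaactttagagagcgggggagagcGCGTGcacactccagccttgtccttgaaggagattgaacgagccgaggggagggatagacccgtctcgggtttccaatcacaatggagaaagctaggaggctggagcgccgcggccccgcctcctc
The Ldha window held 3 such stretches, of which 2 were the palindrome CACGTG, which is also an E-box. It had a GC content of 67.2% and 25 CG dinucleotides. The Ldhb window held 1 stretch, a GC content of 56.4% and 14 CG dinucleotides. Before the second listed Ldha start, the window also held 1 stretch, with a GC content of 54.4% and 9 CG dinucleotides. Bases shortly after that second start were found in an annotated Ldha transcript, so the contrast with Ldhb depends on the Ldha start used. Of 31 glycolysis and lactate genes with a window at their first listed start, 24 held a match and 14 held 2 or more, against 38.6% and 13.5% of all 32851 windows. Among windows with 10 or more CG dinucleotides, 19 of 22 windows of these genes and 64.2% of all 12417 held a match. A match is a description of the letters, and binding was not measured.

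The 19 enzyme genes from hexokinase to lactate dehydrogenase together took a median of 0.911% of the TPM of a cell. The quartiles were 0.741% and 1.10%, and the extremes were 0.371% and 2.22%. Gapdh alone made up 30.9% of that sum. The sum leaves out Gm5506, a copy of Eno1 described below, which had a median of 906 TPM. Transcripts of 8 of the 33 genes were detected in all 84 cells, and these were Gpi1, Aldoa, Gapdh, Pgk1, Pgam1, Eno1, Pkm and Ldha. Another 13 genes were detected in at least 42 cells, which brings the count to 21 of 33. The remaining 12 were detected in under 42 cells, 6 of them in under 20. Over all 20308 genes, 754 were detected in every cell and 7031 in 42 or more cells.

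**Figure D1:**
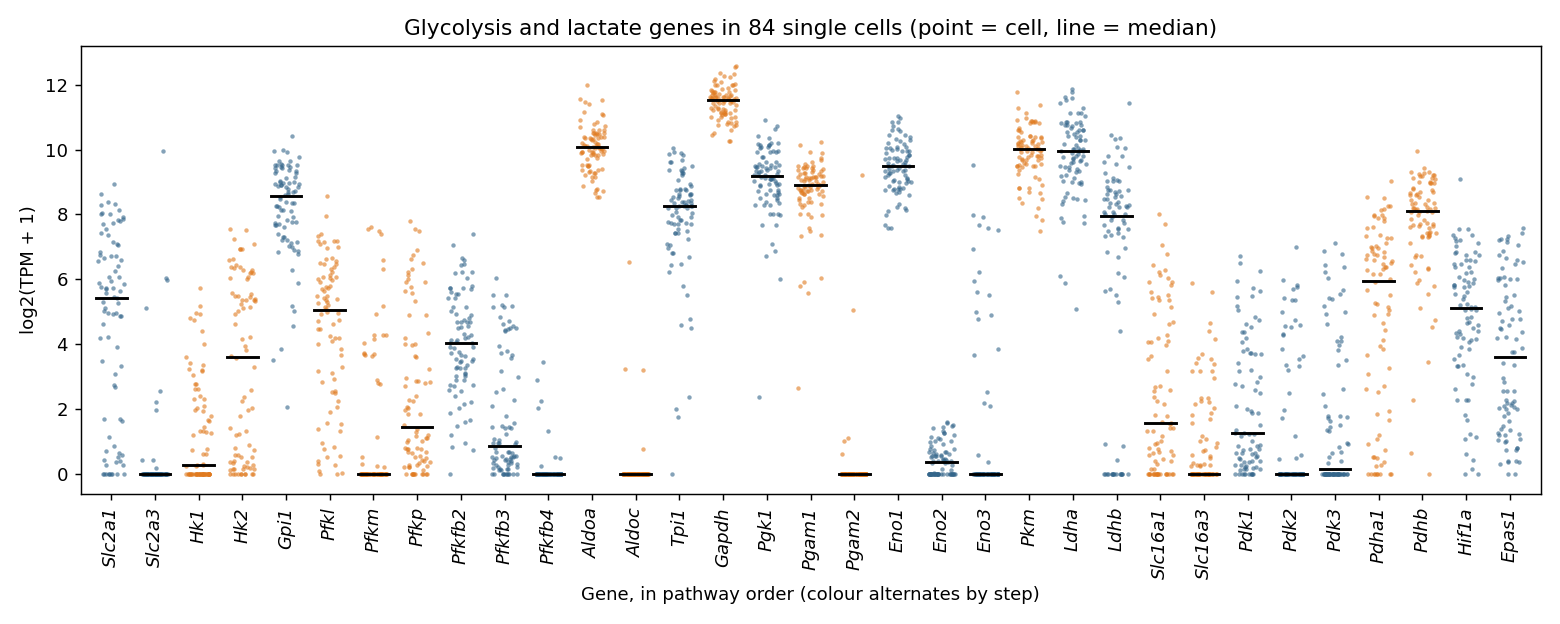
Levels of the 33 glycolysis and lactate genes in 84 cells, as log2(TPM + 1) on the vertical axis and in pathway order on the horizontal axis, with a point for each cell, a line at the median and colour changing with each step. Gapdh had the highest median (2943 TPM), Aldoa, Gapdh, Pgk1, Pgam1, Eno1, Pkm and Ldha were detected in every cell, and Ldhb fell into cells near 0 and cells above TPM 20.

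Glucose uptake was represented mainly by Slc2a1, which encodes the transporter GLUT1. Slc2a1 was detected in 65 cells, or 77.4% (exact 95% interval 67.0% to 85.8%, here and below for counting error over cells only). Its levels ran from 0 to 484 TPM with a median of 42.1 TPM and quartiles of 2.20 and 118 TPM. Slc2a3, which encodes GLUT3, was detected in 7 cells, or 8.33% (3.42% to 16.4%). Its highest values were 984, 64.98, 61.96 and 33.6 TPM, so the cell at 984 TPM held most of the Slc2a3 transcripts measured. Slc2a1 made up 86.1% of the summed TPM of the transporters and Slc2a3 the other 13.9%. Neither was detected in 18 cells.

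Hexokinase traps glucose in the cell as its phosphate, and Hk2 led this step. Hk2 was detected in 54 cells with a median of 11.1 TPM and a maximum of 187 TPM. Hk1, the form found in most tissues, was detected in 35 cells with a median of 0.20 TPM and a maximum of 51.7 TPM. Hk2 took 88.7% of the summed TPM and was the higher form in 51 cells, while Hk1 was the higher form in 12 cells. Both were detected in 27 cells, Hk2 alone in 27, Hk1 alone in 8 and neither in 22. The hexokinase transcripts were thus low beside the next step, since their sum had a median of 22.3 TPM. Gpi1, which encodes glucose-6-phosphate isomerase, had a median of 376 TPM and ran from 3.21 to 1380 TPM.

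Phosphofructokinase commits sugar to glycolysis, and its transcripts were a mixture of 3 isoforms. The liver form Pfkl was detected in 72 cells with a median of 31.9 TPM and a maximum of 382 TPM. The platelet form Pfkp was detected in 50 cells with a median of 1.72 TPM and a maximum of 221 TPM. The muscle form Pfkm was detected in 22 cells and reached 196 TPM. Of the summed TPM, Pfkl took 58.4%, Pfkp 25.7% and Pfkm 15.8%. Pfkl was highest in 51 cells, Pfkp in 24 and Pfkm in 7, and 49 cells held at least 2 of the forms at TPM 1 or more.

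The bifunctional Pfkfb enzymes make and degrade fructose 2,6-bisphosphate, an activator of phosphofructokinase. Pfkfb2 was detected in 80 cells with a median of 15.4 TPM and a maximum of 167 TPM. Pfkfb3, the form best known from angiogenic endothelium, was detected in 37 cells with a median of 0.83 TPM and a maximum of 65.03 TPM. Pfkfb4 was detected in 5 cells and stayed below TPM 10. Pfkfb2 was the highest form in 69 cells and Pfkfb3 in 14, and they took 77.5% and 21.6% of the summed TPM. The level of Pfkfb2 followed the number of genes detected in a cell more than that of any other of the 33 genes, with a Spearman's rho of 0.53 over 84 cells.

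From aldolase to pyruvate kinase, 1 of the genes described here led each step, though the table holds a copy of the enolase gene at a similar level. Aldoa, the muscle-type aldolase, ran from 368 to 4073 TPM with a median of 1069 TPM and took 99.9% of the aldolase sum. Aldoc, the brain-type aldolase, was detected in 3 cells, with a maximum of 92.2 TPM. Tpi1, which encodes triosephosphate isomerase, was detected in 83 cells with a median of 306 TPM and a maximum of 1051 TPM. The cell with Tpi1 listed at 0 was also the cell with the fewest genes detected, at 3334.

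Gapdh, which encodes glyceraldehyde-3-phosphate dehydrogenase, had the highest level and a narrow range, from 1220 to 6058 TPM with a median of 2943 TPM. Pgk1, which encodes phosphoglycerate kinase, had a median of 580 TPM and ran from 4.21 to 1911 TPM. Pgam1, the brain-type phosphoglycerate mutase, had a median of 478 TPM, and ran from 5.31 to 1196 TPM. It made up 98.5% of the mutase sum. The muscle form Pgam2 was detected in 4 cells with highest values of 587 and 32.4 TPM, and in 1 of these it exceeded Pgam1.

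Eno1, which encodes the ubiquitous alpha-enolase, ran from 190 to 2084 TPM with a median of 724 TPM and was the highest of the 3 enolases in all 84 cells. It took 96.7% of the enolase sum, against 3.24% for the muscle enolase Eno3 and 0.05% for the neuronal enolase Eno2. The level of Eno1 is uncertain, because the table also holds Gm5506, which RefSeq lists with the synonym Eno1b. Gm5506 had a median of 906 TPM, was detected in every cell and took 55.7% of the summed TPM of Eno1 and Gm5506. Their levels correlated across the 84 cells with a rho of 0.96, and their sum had a median of 1661 TPM. The division of reads between a gene and a near-identical copy depends on the counting.

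Pkm, which encodes pyruvate kinase, ran from 178 to 3478 TPM with a median of 1026 TPM. Its splice forms, which differ in regulation, cannot be told apart in a table of genes. Other isozymes of the pathway were checked as a list of 18 genes, of which 17 had a row. None of the 17 was detected in 42 or more cells, and 9 were detected in no cell, which allows a share of up to 3.57% of cells with the transcript detected. The most frequent were Pfkfb1, the liver form of the bifunctional enzyme, in 23 cells, Slc2a10 in 17 cells and Slc2a8 in 15 cells.

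**Figure D2:**
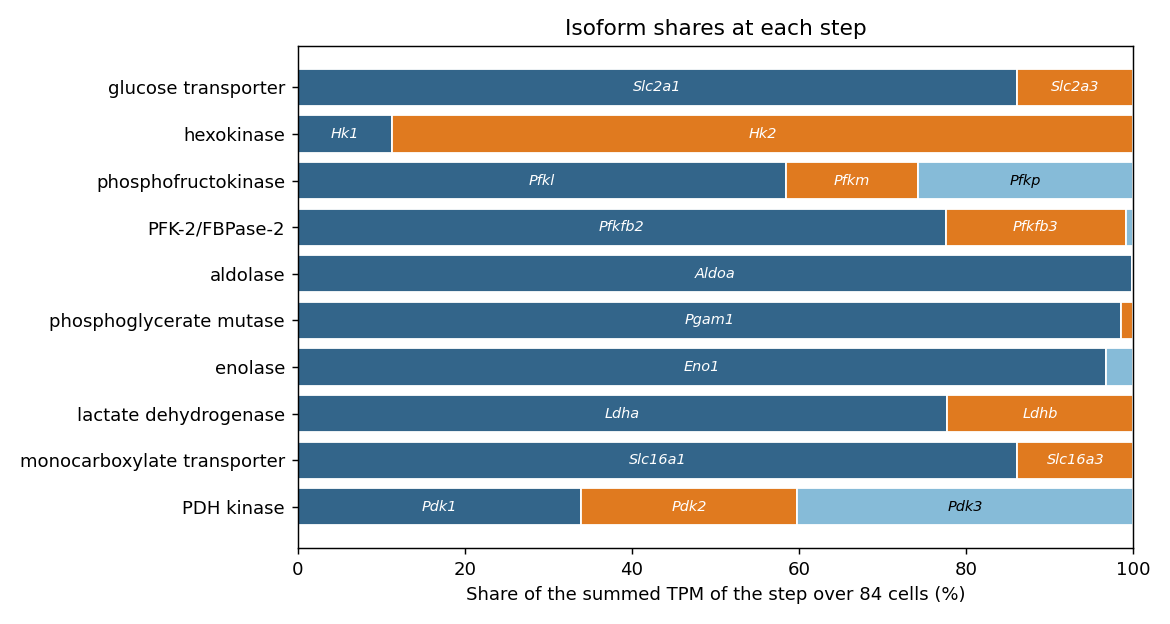
Share of the summed TPM over 84 cells, in percent on the horizontal axis, of each isoform at the 10 steps with more than 1 isoform; colours only separate isoforms, and segments too narrow for a name are Pfkfb4, Aldoc, Pgam2, Eno2 and Eno3. Aldoa, Pgam1 and Eno1 took between 96.7% and 99.9% of their steps, while the phosphofructokinases and the pyruvate dehydrogenase kinases were mixed.

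Lactate dehydrogenase combined a gene found in every cell with a gene found in some. Ldha was detected in all 84 cells, ran from 33.1 to 3697 TPM and had a median of 987 TPM with quartiles of 586 and 1579 TPM. Ldhb was detected in 65 cells, or 77.4% (67.0% to 85.8%), with a median of 248 TPM, quartiles of 43.4 and 424 TPM and a maximum of 2760 TPM. Over the summed TPM, Ldha took 77.8% and Ldhb 22.2%. The Ldhb share of both had a median of 18.4% per cell and ran from 0% to 90.2%, and Ldhb exceeded Ldha in 14 cells.

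Ldhb was singled out with its large spread already known. It was listed at 0 in 16 cells and lay above 0 but under TPM 1 in 3 cells, with 0.90 TPM as the highest of these. The next value was 20.3 TPM, so 0 cells lay between TPM 1 and 20. The other 65 cells held a median of 313 TPM. Of these cells, 58 were at TPM 100 or more, and 1407 TPM was the second highest value. Of 6902 genes detected in 20 to 74 cells, Ldhb was the 1 gene with no cell from TPM 1 to under 20. These bounds were chosen after its values were seen, and with an upper bound of TPM 10 or TPM 5, 7 and 26 genes had an empty range, Ldhb included.

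Genes with such a level in the cells that hold them were mostly found in nearly every cell. Of 249 genes whose median over detecting cells lay within 1.25-fold of that of Ldhb, 226 were detected in 80 or more cells, and the median was 83 cells. Ldhb and 2 others were detected in 65 cells or fewer. Ldhb was singled out with its spread known and its own median set the range, so this describes the same pattern again. Ldhb and Ldha were not closely tied, with a rho of -0.15 over the 84 cells, which share a protocol of capture and library preparation. The level of Ldhb did not follow the number of genes detected per cell either (rho -0.05), and neither did that of Ldha (rho 0.10).

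The labels give a pair of library indexes for each cell, and the second index splits the cells into 7 sets of 12. Ldhb was detected in 5 of 12 cells of the first set and in 8 to 11 of 12 cells of each of the other sets. Its median ran from 0.45 TPM in that first set to 373 TPM in the second set. Over the same sets the Ldha median ran only from 794 to 1117 TPM. The first set held 2 cells with 3 or more mesenchyme markers at TPM 10, against 3 to 7 cells in each of the others. Among cells with 0 such markers, Ldhb was detected in 3 of 8 in the first set. In sets 2 to 7 it was detected in 3 of 4, 2 of 4, 4 of 5, 5 of 8, 3 of 5 and 5 of 7 of them. The part of the index set in the level of Ldhb was not tested.

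**Figure D3:**
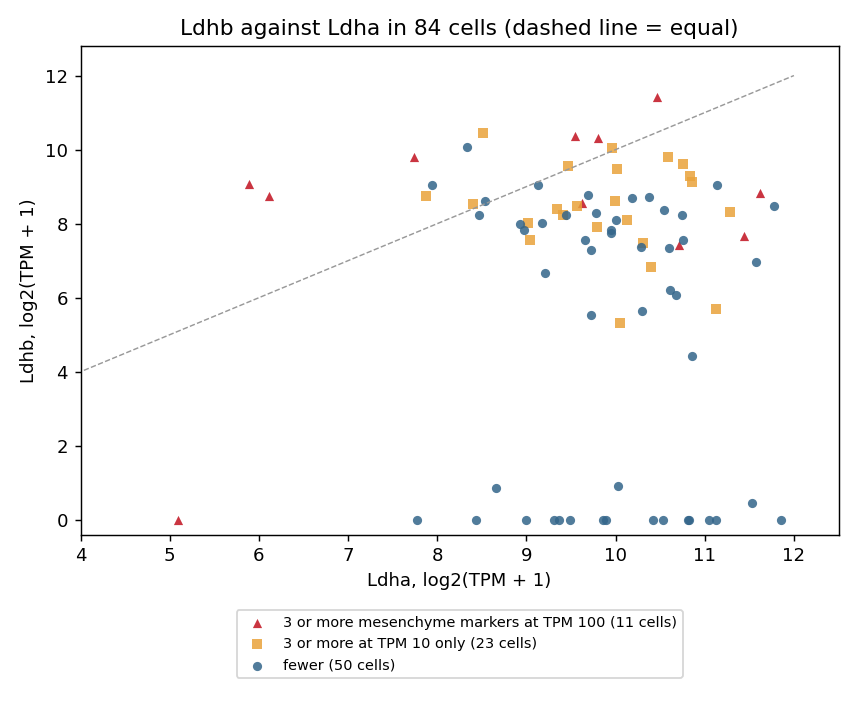
Ldhb on the vertical axis against Ldha on the horizontal axis, both as log2(TPM + 1), with a point for each of 84 cells and symbols for the number of mesenchyme markers. Cells lie either at the bottom, under TPM 1 of Ldhb, or above TPM 20, and 14 cells lie above the dashed line of equal levels.

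Monocarboxylate transporters carry lactate across the membrane. Slc16a1, which encodes MCT1, was detected in 49 cells with a median of 1.94 TPM and a maximum of 257 TPM. Slc16a3, which encodes MCT4, a form known for lactate export, was detected in 27 cells and reached 57.9 TPM. Slc16a1 was the higher form in 44 cells and Slc16a3 in 12, both were detected in 21 cells, and neither in 29. The transporters were therefore low beside lactate dehydrogenase, with a median of 5.15 TPM for their sum against 1334 TPM for Ldha and Ldhb. By Spearman's rho over 84 cells, the non-member genes detected in 20 or more cells that were most like Slc16a3 were Tab3 (rho 0.47), Cmtm8 (0.45), Adam15 (0.42), Fgd6 (0.41) and Jak3 (0.41). Slc16a3 was under TPM 1 in 57 cells and Tab3 was detected in 20, so many of these ranks rest on values near 0. The rho of Slc16a3 with the number of genes detected per cell was 0.31.

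Pyruvate dehydrogenase links glycolysis to mitochondria, and Pdha1 and Pdhb encode the alpha and beta subunits of its first enzyme. Pdhb was detected in 82 cells with a median of 272 TPM and a maximum of 982 TPM. Pdha1 was detected in 67 cells with a median of 61.4 TPM and a maximum of 525 TPM. Pdhb was the higher subunit in 71 cells and Pdha1 in 13. The kinases that inactivate the enzyme were low and mixed. Pdk1 was detected in 46 cells (maximum 105 TPM), Pdk3 in 34 (maximum 137 TPM) and Pdk2 in 25 (maximum 127 TPM). Pdk3 led by summed TPM, with 40.2% against 33.9% for Pdk1 and 25.9% for Pdk2. Pdk1 led by cells, being the highest in 27, against 22 for Pdk3 and 18 for Pdk2.

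Other genes of pyruvate entry were checked as a list of 9, of which 7 were detected in 42 or more cells, against 7031 of all 20308 genes. Bsg, the chaperone of the monocarboxylate transporters, was detected in 82 cells with a median of 172 TPM. Mpc1, a subunit of the mitochondrial pyruvate carrier, was detected in 79 cells with a median of 103 TPM. Dld, a subunit of the pyruvate dehydrogenase complex, was detected in 74 cells with a median of 89.2 TPM, and Pdha2 was detected in no cell.

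Hif1a and Epas1 encode the oxygen-regulated subunits HIF-1α and HIF-2α, whose protein levels are set mainly by degradation, which transcripts do not show. Hif1a was detected in 79 cells with a median of 33.6 TPM and a maximum of 545 TPM. Epas1 was detected in 72 cells with a median of 11.1 TPM and a maximum of 191 TPM. Hif1a was the higher of these in 52 cells and Epas1 in 31. Both were detected in 68 cells. The genes most like Epas1 were Cd93 (rho 0.51), Vamp5 (0.50), Heg1 (0.49), Ctla2a (0.49) and Flt1 (0.49), and Cd93 and Flt1 are known from endothelium.

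Of 8 partners of these factors, 5 were detected in 42 or more cells, as were 7031 of all 20308 genes. The prolyl hydroxylase genes Egln1 and Egln2, whose products mark HIF for degradation, were detected in 71 and 67 cells with medians of 19.3 and 25.7 TPM. Arnt, the shared partner subunit, was detected in 50 cells, and Egln3 in 11. Of 16 other genes known as HIF targets, 7 were detected in 42 or more cells, not far from that share of all genes. Mif, a cytokine gene, had a median of 1563 TPM and was detected in every cell, the mitophagy receptor gene Bnip3l in 82 with a median of 155 TPM and Higd1a in 82 with a median of 72.1 TPM. Ddit4 was detected in 10 cells.

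Genes of branches that leave glycolysis were also checked. Of 7 genes of the pentose phosphate pathway, 5 reached 42 or more cells, against 7031 of all 20308 genes. The most frequent were the transaldolase gene Taldo1 (82 cells, median 227 TPM), Pgd (78 cells, 12.995 TPM) and Pgls (69 cells, 22.5 TPM), with Rpia in 16 cells. Of 16 genes of serine synthesis, glycogen, glycerol and other side branches, 6 reached 42 or more cells, not far from that share of all genes. The serine synthesis genes Psat1 and Phgdh were detected in 66 and 51 cells with medians of 53.995 and 25.005 TPM. Txnip, whose product restrains glucose uptake, was detected in 59 cells with a median of 25.5 TPM, and the gluconeogenesis genes Fbp2 and G6pc were detected in no cell.

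Spread over cells was measured as the SD of log2(TPM + 1) and ranked among the 200 genes on either side in mean level, where rank 1 is the widest. At the ends of the range of means the same number of genes was kept, which made the comparison lopsided: 366 genes of lower and 34 of higher mean stood beside Gapdh, and 365 of higher and 35 of lower mean beside Pfkfb4. Of the 33 genes, 31 were detected in at least 5 cells and had a rank. Their median rank was 171, against 203 for all 12318 such genes, and their median SD was 1.84, against 1.94. Ldhb, whose large spread was known beforehand, had the widest spread among its neighbours, with an SD of 3.60 and rank 1. Eno3 followed with an SD of 2.57 and rank 3, and Slc2a3 with an SD of 1.55 and rank 18.

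No other of the 31 genes was within the first 40 ranks. At the narrow end were Eno2 (rank 386) and Pfkfb2 (rank 377). Gapdh had an SD of 0.50 and rank 298, mostly against genes of lower mean. Ldha, with an SD of 1.25 and rank 71, spread more than the similarly abundant Aldoa (SD 0.72, rank 200), Pkm (0.83, rank 171) and Eno1 (0.79, rank 177). Much of this lay in few cells, since the SD of Ldha was 2.32 in the 11 mesenchyme-marker cells described below and 0.96 in the other 73. In those 73 the SD was 0.73 for Aldoa, 0.83 for Pkm and 0.78 for Eno1. Genes of lower mean made up 242 of the neighbours of Ldha, 269 of Aldoa, 257 of Pkm and 205 of Eno1, so these ranks were also somewhat lopsided.

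**Figure D4:**
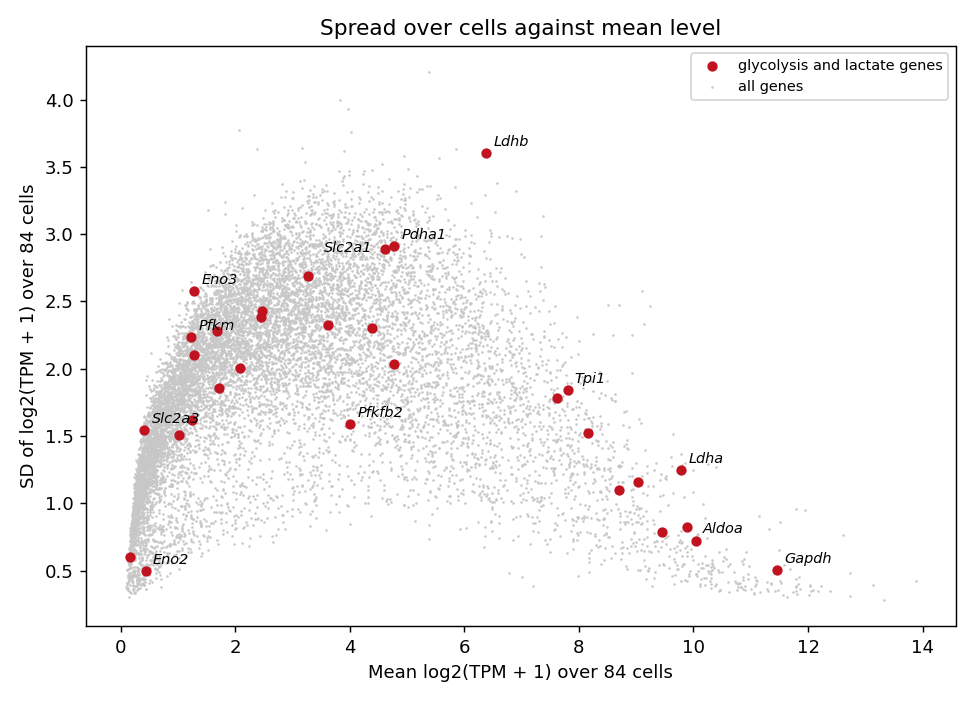
SD of log2(TPM + 1) over 84 cells on the vertical axis against mean log2(TPM + 1) on the horizontal axis, with glycolysis and lactate genes as red points and all genes detected in 5 or more cells as grey points. Ldhb (SD 3.60) lies above the genes of like mean, while Gapdh (SD 0.50) lies low at the right.

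The rarely detected muscle isoforms reached high levels in some cells. Eno3 was at TPM 10 or more in 16 cells from 5 of the 7 index sets, with highest values of 736, 254 and 243 TPM. Of these 16 cells, 15 carried 3 or more pan-endothelial markers and 11 carried 3 or more mesenchyme markers at TPM 10, and 34 of all 84 cells carried 3 or more mesenchyme markers. Of the 16, 2 carried 3 or more of 6 skeletal muscle markers, as did 5 of all 84 cells. Likewise 2 of the 16 carried 3 or more of 6 megakaryocyte markers, as did 3 of all 84 cells. For the erythroid, epithelial and neural marker lists it was 1 of the 16 each, against 2, 2 and 4 of all 84 cells. For the smooth muscle and germ cell lists it was 0 of the 16, against 2 and 3 of all 84 cells. Pfkm was at TPM 10 or more in 18 cells from all 7 sets, of which 18 carried 3 or more pan-endothelial and 10 carried 3 or more mesenchyme markers.

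Some of the sorted cells also carried transcripts of mesenchyme, the connective tissue around the vessels, and the 33 genes were compared in these cells and the rest. The 11 mesenchyme-marker cells had at least 3 of 11 mesenchyme markers at TPM 100 or more, and the other cells numbered 73. This is a range of a marker count and not a cell type, since 5 cells had exactly 3 such markers and 5 had exactly 2. The mesenchyme-marker cells came from 5 of the 7 index sets. The summed TPM of the mesenchyme list ran from 505 to 2847 in the mesenchyme-marker cells and from 0.04 to 1782 in the other cells, and Tcf21 was at 0 in all of the 11. The summed TPM of the 17 pan-endothelial markers ran from 146 to 4618 (median 1693) in the mesenchyme-marker cells and from 6.92 to 10794 (median 3826) in the other cells. A median of 6540 genes was detected in the mesenchyme-marker cells and 7058 in the other cells. Doublets were not tested, and a chip site that held a pair of cells cannot be told apart from a cell with both sets of markers.

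By mean log2(TPM + 1), 1 of 31 glycolysis and lactate genes was higher by at least 1 log2 unit in the mesenchyme-marker cells, against 5.88% of all 12318 genes. In the same cells, 5 of 31 were lower by at least 1 unit, against 18.5% of all genes. The median difference was -0.18 over the 31 genes, against -0.26 over all genes. Neither count thus stands far from the background of all genes.

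The gene that was higher was Ldhb. Ldhb ran from 0 to 2760 TPM in the mesenchyme-marker cells with a median of 456 TPM, against 0 to 1407 TPM with a median of 226 TPM in the other cells. The difference of means was 2.31 on the log2 scale. The groups overlapped over nearly their whole range, and Ldhb was detected in 10 of 11 mesenchyme-marker cells (90.9%, interval 58.7% to 99.8%) and 55 of 73 other cells (75.3%, 63.9% to 84.7%). Ldhb exceeded Ldha in 6 of the 11 and in 8 of the 73.

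Slc2a1 showed the largest difference downward. It was detected in 4 of 11 mesenchyme-marker cells with a median of 0.44 TPM, against 61 of 73 other cells with a median of 50.5 TPM, a difference of -2.65. The ranges overlapped, at 0 to 393 TPM in the mesenchyme-marker cells and 0 to 484 TPM in the other cells. Pfkp (-1.89) had medians of 0.33 and 2.59 TPM in mesenchyme-marker and other cells. Epas1 (-1.80) had medians of 2.47 TPM in the mesenchyme-marker cells and 16.8 TPM in the other cells.

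Pdhb (-1.24) had medians of 171 TPM in the mesenchyme-marker cells and 275 TPM in the other cells. Ldha lay at -1.001, with 33.1 to 3136 TPM (median 790 TPM) in the mesenchyme-marker cells and 217 to 3697 TPM (median 997 TPM) in the other cells. The 4 lowest of the mesenchyme-marker cells, at 33.1, 58.4, 68 and 213 TPM, lay below all of the other cells. The remaining genes stayed within 1 log2 unit, among them Gapdh (0.04), Eno1 (0.58), Pdha1 (0.72) and Hif1a (-0.61). Under 3 of the 5 alternatives, which were 3 or 5 markers at TPM 10 and a pseudocount of 10, Pfkp, Pdhb and Ldha lay within 1 unit, at -0.99 to -0.60 for Pfkp, -0.84 to -0.42 for Pdhb and -0.94 to -0.39 for Ldha. Epas1 did so with 5 markers at TPM 10 (-0.84), and Ldha also with median-of-ratios scaling (-0.94). The parts of endothelial marker level and of genes detected in these differences were not tested.

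Ldhb was also compared across finer ranges of the mesenchyme marker count. In the 23 cells with 3 or more markers at TPM 10 but not at TPM 100, Ldhb was detected in all 23, with a range from 38.7 to 1407 TPM and a median of 354 TPM. In the 9 cells with 1 or 2 markers it was detected in 7, with a median of 188 TPM. In the 41 cells with 0 markers it was detected in 25, or 60.98% (44.5% to 75.8%), with a median of 124 TPM. The median Ldhb share of lactate dehydrogenase transcripts was 58.9% in the 11 mesenchyme-marker cells, 30.6% in the 23 cells and 5.06% in the 41 cells without markers. Ldha medians over the same ranges were 790, 1016 and 984 TPM. The 4 cells with under 3 pan-endothelial markers held Ldhb at 299, 354, 355 and 1279 TPM.

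Correlations over all 84 cells, which form 1 sample and share that protocol, were computed as a description. The mean level of the mesenchyme list correlated with Ldhb at a rho of 0.43 and that of the pan-endothelial list at -0.36. Without the 11 mesenchyme-marker cells these were 0.36 and -0.30. Slc2a1 and Epas1 followed the pan-endothelial list with rho values of 0.61 and 0.49, and of 0.51 and 0.49 without those 11 cells. Means of the S-phase and G2/M lists had rho values of -0.09 and 0.05 with Ldhb. All 16 G2/M genes and 13 of 14 S-phase genes were detected in 42 or more cells, against 7031 of all 20308 genes. The G2/M genes were led by Birc5 (84 cells), Top2a and Ube2c (83 each), with Aurka and Aurkb in 51. The S-phase genes were led by Tyms (84 cells), Pcna and Rrm1 (83 each), with Ccne1 in 41.

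Among 9656 genes ranked for likeness to Ldhb, the highest were Rimklb (rho 0.54), Crabp2 (0.53), Mdk (0.50), Runx1t1 (0.49), Col1a1 (0.48), Bmpr1a (0.47), Fat1 (0.46), Epha4 (0.46), Robo1 (0.45) and Gpc3 (0.45). The retinoic acid binding protein gene Crabp2, the growth factor gene Mdk and the collagen gene Col1a1 are known from embryonic mesenchyme, and Col1a1 is itself among the mesenchyme markers used above. The lowest were Egfl7 (-0.54), Stab1 (-0.52), Dmtn (-0.51), Gnas (-0.51) and Nfatc1 (-0.50), of which Egfl7 and Stab1 are known from endothelium. Within the 41 cells with 0 mesenchyme markers, Rimklb and Crabp2 had rho values of 0.45 and 0.43 with Ldhb. Mdk and Gpc3 had 0.02 and -0.08 there, and Dmtn and Nfatc1 had -0.60 and -0.58.

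The abundant genes of the pathway varied together. Over the 8 genes detected in every cell, the 28 pairs had a median rho of 0.34 and ran from 0.10 to 0.64, and 57.1% of the pairs reached 0.30. Over all 362 genes detected in every cell at or above the lowest mean of those 8, the 65341 pairs had a median rho of 0.02 and 4.41% reached 0.30. The highest pairs were Gapdh with Eno1 (0.64), Aldoa with Ldha (0.58) and Eno1 with Pkm (0.54). Within the 7 index sets of 12 cells, the median over the 28 pairs ran from 0.13 to 0.55. Over the 21 genes detected in 40 or more cells, the 210 pairs had a median of 0.08.

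Neither the hypoxia-inducible factor genes nor Slc2a1 and Ldhb followed this group closely. Hif1a correlated with the 8 genes at -0.10 (Gpi1) to 0.23 (Pgk1). Epas1 had values from -0.31 (Eno1) to 0.00 (Ldha), Slc2a1 from -0.16 (Pgk1) to 0.14 (Pgam1), and Ldhb from -0.15 (Ldha) to 0.20 (Pkm). The genes outside the 33 that were most like Ldha were Cycs (rho 0.50), which encodes cytochrome c, the enolase copy Gm5506 (0.45), Mif (0.42), the ADP/ATP carrier gene Slc25a5 (0.41) and the chromatin protein gene Hmga1 (0.41). In the 41 cells with 0 mesenchyme markers, Cycs had a rho of 0.72 with Ldha.

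**Figure D5:**
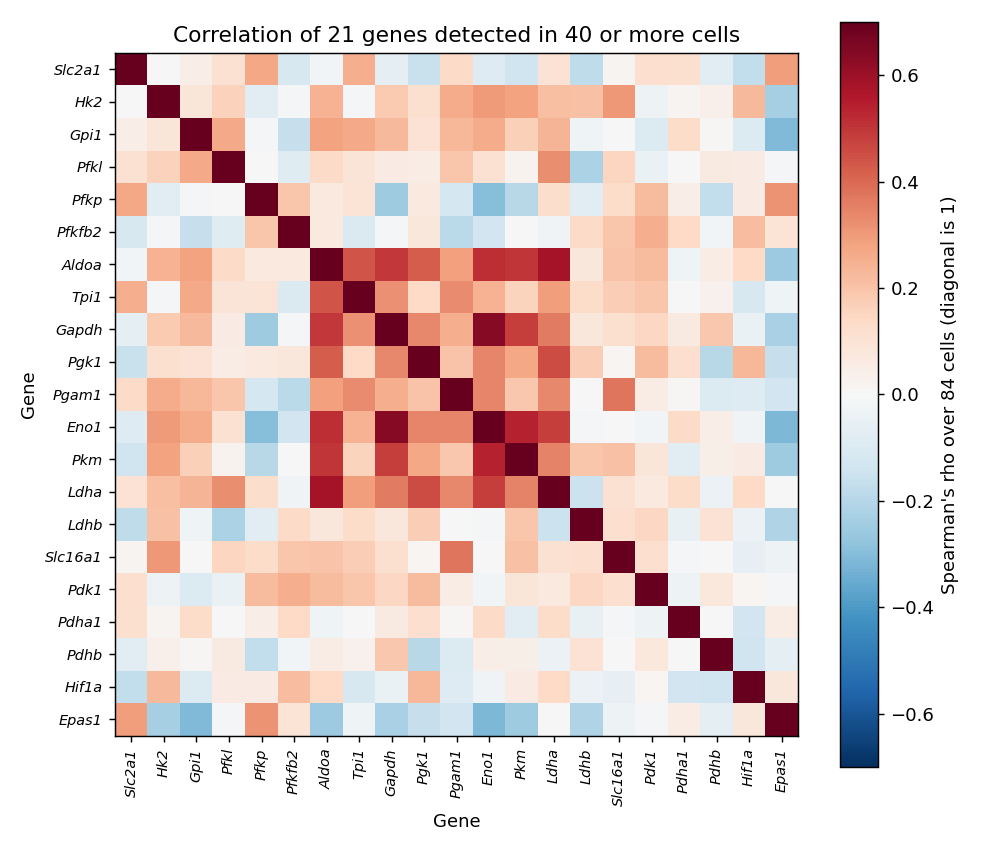
Spearman's rho over 84 cells for each pair of the 21 glycolysis and lactate genes detected in 40 or more cells, in pathway order on both axes, with red above and blue below 0. The block from Aldoa to Ldha is red (up to 0.64 for Gapdh with Eno1), while Ldhb, the pyruvate dehydrogenase genes and Hif1a are pale.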

How the data were processed

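Single-cell RNA sequencing of 84 cells was analysed from 1 table of TPM values for 20308 genes, deposited by the authors. Per the submitters' processing notes, RSEM 1.2.3, Bowtie 0.12.9 and CASAVA 1.8.2 were used with the build mm10; no settings or annotation are given in the sources used here. A TPM value carries no depth, so its precision in a cell is unknown. Each sample is 1 cell, and no embryo is named.

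Detection was TPM 1 or more, with exact Clopper-Pearson intervals at the 95% level. The genes and lists were chosen with earlier results of these data known. Isoform shares use summed TPM. Logarithms are log2(TPM + 1), with a pseudocount of 1, which understates differences of low genes. Ranks of spread and differences between cells use the 12318 genes detected in at least 5 cells, and were tested on simulated data. The genes named are the 33 genes, from each other pathway list the 3 most frequently and the least frequently detected (except the other isozymes detected in no cell, which are not reported here by name), marker genes where a result turns on them, and the genes most like Ldhb, Ldha, Slc16a3 and Epas1 by Spearman's rho. No cell was left out. Alternatives were other detection limits, pseudocounts, filters and cells kept, and a median-of-ratios scaling. Python 3.11.15, pandas 2.3.3, numpy 2.4.6 and scipy 1.17.1 were used.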

Additional observations from a re-analysis of the deposited data

How the results depend on the processing

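Of 776 values recomputed under alternatives, 63 moved. Among the values that carry the main results, 14 moved and 53 did not, against 49 and 660 of the values for single genes and steps. A share of cells counted as moved outside its 95% interval, and a level beyond 1 SD over cells. The bound was 1 SD over the index sets for a correlation and 1.5 times for a count. A leading isoform moved when another led, a spread rank when it crossed rank 20, and a difference when it crossed 1 log2 unit. Of 155 differences between mesenchyme-marker and other cells, 12 changed sign, 0 of them among the 30 of the 6 genes past 1 log2 unit. Ldhb, singled out with its spread already known, kept rank 1 for it under all alternatives except a pseudocount of 10, which gave rank 3. By the median of per-cell shares, 9 of 10 steps had the same leading isoform, with Pdk1 in place of Pdk3. Ldhb was detected in 41.7% of cells in index set 1, 91.7% in sets 2 and 4 and 66.7% in set 5, and in 60.98% of cells with 0 mesenchyme markers, an alternative added after seeing the data. With mesenchyme-marker cells defined by 3 markers at TPM 10, 3 of 31 genes were higher (Pfkm, Eno3 and Ldhb; 3.95% of all genes) and 2 lower (Slc2a1 and Epas1; 6.40%), and Eno3 lay at 1.43, against -0.71 in the reported comparison. With 5 markers at TPM 10, 2 were lower (Slc2a1 and Hif1a, against 8.98% of all genes), and with a pseudocount of 10, 2 were lower (Slc2a1 and Epas1, against 4.24%), so the share of all genes also dropped. Without the cells with under 3 pan-endothelial markers, an alternative also added after seeing the data, 2 were higher (Ldhb and Pdha1, against 6.34% of all genes) and 6 lower (Slc16a1 added, against 18.7%). With median-of-ratios scaling Ldha was no longer among the lower genes, which left 4, against 16.9% of all genes. At TPM 10 or more, 4 pyruvate entry genes, 2 HIF partners and 3 side branch genes were detected in 42 or more cells. The causes of these changes were not tested. Because depth is unknown, a low gene such as Slc16a3 or Pdk2 cannot be called absent in a cell listed at 0. No paired analysis was possible because the cells form 1 group.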
